A study of Mus musculus with 78 samples.

Results

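The 10 genes described here make up a short account of FGF4-ERK signalling in mouse embryonic stem cells: the ligand gene Fgf4, the receptor genes Fgfr1 and Fgfr2, the feedback inhibitor genes Spry1, Spry2, Spry4, Spred1 and Dusp6, and the ETS transcription factor genes Etv4 and Etv5. They were chosen by name, with earlier results of these data known, and all 10 were found among the 54446 gene IDs of the deposited expression tables. The study asked what happens to transcription in mouse embryonic stem cells (mESCs) when TRIM28, a corepressor that keeps endogenous retroviruses silent, is removed. Trim28 carried an FKBP degron tag, so that the ligand dTAG-13 sends the tagged protein to the proteasome, and solvent (DMSO) served as the control. Nascent RNA was measured by TT-SLAM-seq, in which a short pulse of 4-thiouridine labels newly made transcripts, in 12 libraries of tagged cells, 3 each for DMSO and for dTAG-13 (500 nM) after 2 h, 6 h and 24 h. Steady-state polyA RNA was sequenced from the same line after DMSO or 2, 6, 24 or 96 h of dTAG-13 (3 libraries each, 15 in all).

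A derived line with doxycycline-inducible short hairpin RNAs against retroviral repeats (called shERV here) gave total RNA after DMSO, 24 h of dTAG-13, or 24 h of dTAG-13 with doxycycline (3 libraries each). The titles give doxycycline to the third of these groups alone, whereas a protocol note names 2 ug/mL pre-treatment for all 3 groups, and the labels alone do not settle this conflict. The paper describes a rescue by hairpins that were expressed for 24 h ahead of 24 h of TRIM28 degradation. The groups here follow the titles. Untreated parental mESCs and neural progenitor cells (NPCs, kept in DMSO) gave 3 polyA libraries each, and peaks of RNAPII, the Mediator subunit MED23, H3K27Ac and H3K9me3 were deposited for tagged cells after DMSO and after 24 h of dTAG-13. In the polyA series the DMSO medium was added 24 h before collection and dTAG-13 medium at each stated time, with daily renewal. At 2 h and 6 h the loss of TRIM28 and the time since fresh medium cannot be told apart. All dTAG-13 groups of an experiment share their 3 DMSO libraries, so their comparisons are not independent of each other. The study's figure legends call the time-course, shERV and nascent replicates biological, whereas its methods call the nascent ones technical where their tracks were merged. Separate cultures are not stated, so p-values measure only the spread between these libraries.

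FGF4 is secreted by the pluripotent cells themselves and binds FGF receptors on the same and neighbouring cells, with heparan sulphate chains as co-receptors. The receptors signal through the adaptor FRS2, RAS and the kinases RAF and MEK to ERK, which phosphorylates transcription factors and switches on a set of response genes. Among these are the genes of its own inhibitors, Sprouty and SPRED proteins that act on the pathway upstream and the phosphatase DUSP6 that acts on ERK, so the transcripts of this feedback group are widely read as a gauge of pathway activity. In mESCs this signal is best known for readying cells to leave the naive state and for the choice between epiblast and primitive endoderm.

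The nascent libraries were scaled to between 6481999 and 24266191 reads (median 15202337), and the 10 genes held from 22 reads (the lowest library of Etv4) to 39633 (the highest of Fgfr2). The polyA and total RNA tables give relative transcript abundance (TPM), which keeps no depth. The relative depth of those libraries, read from the deposited coverage, ran from 0.289 to 1.49 of their median. All 10 embryonic stem cell markers listed (Pou5f1, Sox2, Nanog and others) were at 1 TPM or more in the tagged cells, where they summed to 3465–3617 TPM in DMSO, and to 2214–2325 TPM after 24 h and 394–454 TPM after 96 h of dTAG-13. Over the same span fibroblast markers went from 94.97–101 to 1427–1502 TPM at 96 h, most of it Acta2 (72.3–77.4 and 1133–1198 TPM). Primitive endoderm markers went from 370–382 to 1946–1991 TPM, most of it Sparc (260–262 and 1382–1425 TPM). These sums moved with the 96 h values below, and their part in them was not tested. In bulk RNA, fewer cells of a type and less RNA per cell cannot be told apart. Trim28 RNA does not check the degradation, which acts on the protein, but it also was lower in the treated cells, at 622, 622 and 626 TPM in DMSO and 369, 365 and 382 TPM at 24 h.

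Fgf4, the ligand gene, had its highest RNA values at 2 h and then lost most of its transcript. It lies on chromosome 7, plus strand (mm10, chr7:144847367-144865243 in the annotation of the deposited tables). That model includes a long transcript with an upstream first exon, while RefSeq starts the gene at 144861386, so nascent values below also count RNA made upstream of that start. Nascent Fgf4 RNA stood at 4.63, 3.97 and 3.60 FPKM (fragments scaled to gene span and library size) in DMSO, 5.19, 5.65 and 5.33 after 2 h, 2.25, 2.97 and 2.96 after 6 h, and 1.63, 1.59 and 1.69 after 24 h. All libraries of 2 h lay above DMSO and all of 6 h and 24 h below, without overlap. Fold changes here are on the log2(value + 0.5) scale, from limma, with Benjamini-Hochberg adjusted p over all genes tested and a call at adjusted p under 0.05. The 2 h difference was 0.37 (SE 0.11, adjusted p = 0.0886) and missed the threshold, and Fgf4 fell by 0.50 at 6 h (SE 0.11, adjusted p = 0.0244) and by 1.09 at 24 h (SE 0.11, adjusted p = 9.94e-05). The 6 h call was lost without 6 h library 1 or DMSO library 1 or 2 (adjusted p 0.0744 to 0.085).

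PolyA Fgf4 RNA was 138.2, 131.0 and 133.0 TPM in DMSO, 157.6, 163.3 and 156.3 after 2 h, 90.4, 108.2 and 100.3 after 6 h, 79.0, 77.9 and 75.7 after 24 h, and 1.91, 1.77 and 1.89 after 96 h. No group overlapped DMSO. The gene rose by 0.25 at 2 h (SE 0.05, adjusted p = 0.0074), fell by 0.43 at 6 h (adjusted p = 8.11e-05) and by 0.79 at 24 h (adjusted p = 1.69e-08), and fell by 5.83 at 96 h (SE 0.05, adjusted p = 1.7e-17), which was 57.0-fold on that scale. This was the largest change of any of the 10 genes in the polyA series, beside a summed embryonic stem cell marker level that also dropped.

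**Figure D1:**
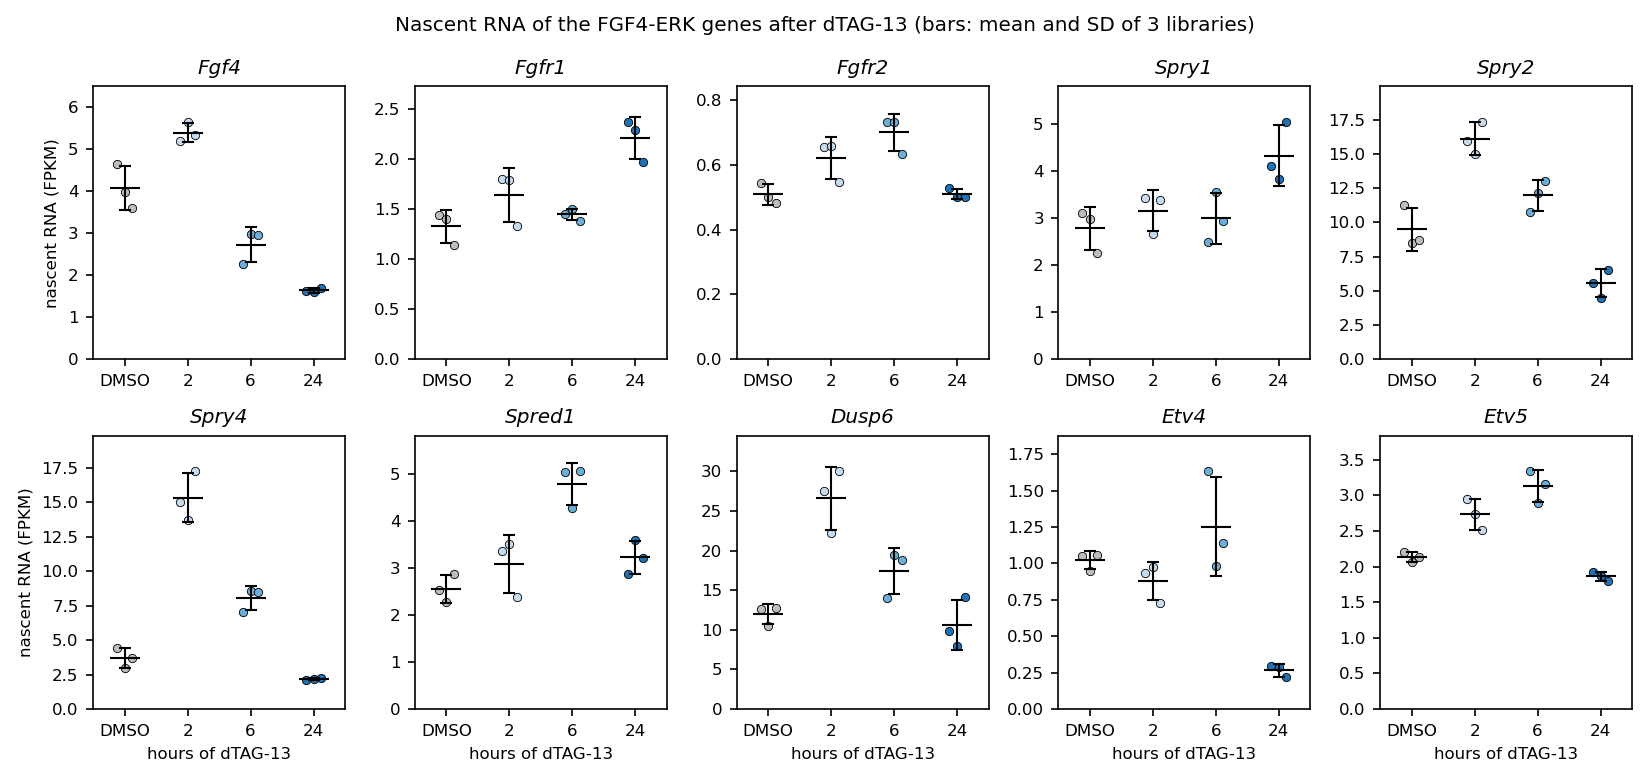
Nascent RNA (FPKM, vertical axes from 0) of the 10 genes by hours of dTAG-13; points are libraries, bars the mean and SD of 3. Spry2, Spry4 and Dusp6 stand highest at 2 h, and Fgf4, Spry2, Spry4 and Etv4 lie below DMSO at 24 h with no overlap.

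The Fgf4 promoter and 2 elements near it are printed because deposited peaks of RNAPII or MED23 lay on them in DMSO. Coordinates are mm10 and the letters run 5′ to 3′ on the plus strand, read from the reference genome; the promoter is the 250 bases before the RefSeq start. Capitals in the promoter mark GC boxes (GGGCGG) and a CCAAT box, here on the reverse strand as ATTGG. Of 32851 RefSeq promoters cut in this way, 32.7% held a GC box and 33.8% a CCAAT box on either strand.
Fgf4 promoter, chr7:144861136-144861385, plus strand: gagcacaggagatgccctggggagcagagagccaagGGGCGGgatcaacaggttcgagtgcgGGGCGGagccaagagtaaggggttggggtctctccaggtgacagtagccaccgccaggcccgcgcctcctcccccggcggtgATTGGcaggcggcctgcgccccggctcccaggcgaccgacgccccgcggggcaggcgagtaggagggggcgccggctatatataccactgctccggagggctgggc
Fgf4 upstream element, chr7:144857222-144857421, plus strand: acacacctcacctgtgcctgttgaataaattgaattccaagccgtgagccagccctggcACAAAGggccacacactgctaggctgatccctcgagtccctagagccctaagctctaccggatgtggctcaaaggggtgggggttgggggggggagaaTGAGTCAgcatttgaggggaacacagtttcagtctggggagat
Fgf4 3′ element, chr7:144864388-144864417, plus strand: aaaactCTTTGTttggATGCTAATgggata

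The upstream element is the 200 bases around the MED23 summits of the DMSO libraries, 4068 and 4060 bp upstream of the RefSeq start and inside an intron of the long transcript. Its capitals mark a SOX-type match (ACAAAG, in 19.8% of 63045 such windows on MED23 summits, either strand) and an AP-1-type match (TGAGTCA, in 9.37%). The 3′ element lies in the 3′ untranslated part of the gene, next to MED23 summits at 2952 and 3015 bp downstream of the start. Its capitals mark a reverse SOX match (CTTTGT) followed after 4 bases by a variant octamer (ATGCTAAT). This spaced arrangement was found in 2 of the 63045 windows (0.00317%), the window on this element among them. The letters and spacing searched were copied from Fgf4 itself, so the low count is no evidence for the element. These motifs were chosen after the data had been seen, and a match is a run of letters, not a measured binding site.

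In a 3106 bp stretch over the upstream element (chr7:144856049-144859154) the highest RNAPII peak had a fold enrichment of 8.13 and 6.06 in DMSO, and no RNAPII peak was called there in either dTAG-13 library. MED23 peaks there were 13.6 and 11.5 in DMSO and 3.86 and 6.02 after 24 h. H3K27Ac peaks were 9.63, 15.3 and 15.2 in DMSO and 4.57, 9.15 and 4.41 in dTAG-13, all lower. Within 1 kb of the RefSeq start RNAPII peaks of 8.24 and 7.74 in DMSO had no counterpart after dTAG-13, and MED23 peaks went from 10.7 and 9.36 to 4.32 and 5.23. At the 3′ region (chr7:144863553-144864786) the RNAPII peaks of 4.19 and 4.21 and the MED23 peaks of 6.45 and 4.70 had no counterpart, while H3K27Ac peaks stood at 3.27, 4.36 and 4.29 in DMSO and 3.59, 4.42 and 2.701 in dTAG-13, which overlap. Peaks were called within each library, and the treated libraries held fewer of them in all, with 8182 and 7689 RNAPII peaks against 19853 and 19194 in DMSO and 15335 and 14551 MED23 peaks against 63045 and 58925, so a lost peak at Fgf4 is to be read against that fall.

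**Figure D2:**
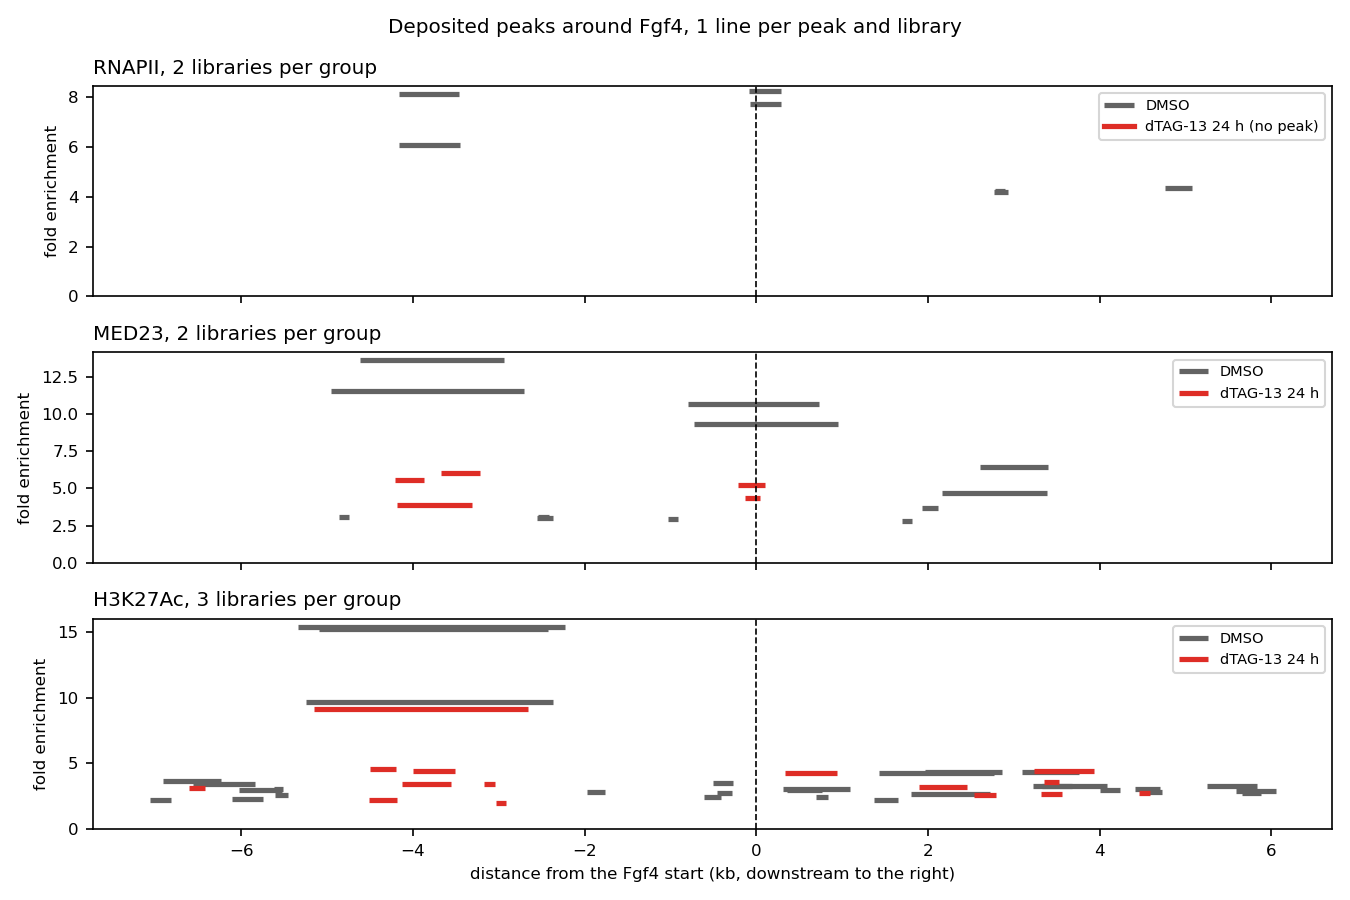
Deposited peaks around Fgf4 by distance from its RefSeq start (kb) and fold enrichment, 1 line per peak and library, grey for DMSO and red for dTAG-13 at 24 h. RNAPII peaks are seen in DMSO only, and the tallest MED23 and H3K27Ac peaks, about 4 kb upstream, are lower after dTAG-13.

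Of the receptor genes, Fgfr1 rose over the time course and Fgfr2 was not called after 24 or 96 h. Fgfr1, the main FGF receptor of mESCs (chr8:25513654-25575718, plus strand), had 1.44, 1.40 and 1.14 nascent FPKM in DMSO and 2.37, 2.29 and 1.97 after 24 h, above every DMSO library, a rise of 0.57 (SE 0.11, adjusted p = 0.00228). Its values of 1.80, 1.79 and 1.33 after 2 h and 1.45, 1.50 and 1.38 after 6 h overlapped DMSO and were not called. PolyA Fgfr1 RNA was 75.2, 73.5 and 79.2 TPM in DMSO, 91.2, 87.6 and 73.8 after 2 h, 82.8, 99.0 and 101.2 after 6 h, 111.3, 129.2 and 139.7 after 24 h, and 249.8, 239.9 and 216.8 after 96 h. The 2 h group overlapped DMSO, and the later groups lay above it. The rises were 0.31 at 6 h (SE 0.10, adjusted p = 0.0272, lost without 6 h library 2 or 3 or DMSO library 1 or 2), 0.73 at 24 h (adjusted p = 1.37e-05) and 1.62 at 96 h (SE 0.10, adjusted p = 1.02e-09), the last 3.08-fold.

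Fgfr2, the receptor that is high in primitive endoderm, had 23.4, 24.3 and 22.0 TPM in DMSO, 26.5, 23.3 and 26.0 after 2 h, 22.7, 23.0 and 23.4 after 6 h, 24.1, 24.1 and 25.3 after 24 h and 22.9, 21.9 and 20.1 after 96 h. All groups overlapped DMSO, and the differences of 0.08 at 24 h (SE 0.06, adjusted p = 0.259) and -0.10 at 96 h (adjusted p = 0.13) were not called. When each library was centred on its own median, which takes out the shift of all genes, Fgfr2 was called lower, by -0.21 at 24 h (adjusted p = 0.00477) and -0.38 at 96 h (adjusted p = 2.87e-05), so its direction at 24 h turns with the scaling. The nascent value of Fgfr2 is uncertain, because its model in the deposited table spans 2960899 bp (chr7:130162451-133123350, minus strand) with 35 other genes of the same strand inside it, whose reads count for Fgfr2 too. It read 0.545, 0.501 and 0.483 FPKM in DMSO and 0.734, 0.733 and 0.635 after 6 h, a rise of 0.25 (adjusted p = 0.0399) that was lost when any of the 6 libraries was left out. At 24 h it read 0.529, 0.501 and 0.501, a difference of 0.00, or -0.24 with centring (adjusted p = 0.022).

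Of the 5 feedback inhibitor genes, 3 rose in nascent RNA at 2 h (1.58% of all genes tested did) and 4 fell in polyA RNA at 24 h (25% of all genes did). Spry4, an inhibitor of receptor-to-RAS signalling (chr18:38586268-38601268, minus strand), showed the largest early rise of the 10 genes. Its nascent RNA was 4.45, 2.96 and 3.69 FPKM in DMSO, 15.0, 13.7 and 17.2 after 2 h, 7.01, 8.56 and 8.47 after 6 h and 2.12, 2.16 and 2.24 after 24 h. Every 2 h and 6 h library lay above DMSO and every 24 h library below it. Spry4 rose by 1.92 at 2 h (SE 0.14, adjusted p = 0.000765, 3.79-fold), rose by 1.03 at 6 h (SE 0.14, adjusted p = 0.0058) and fell by 0.64 at 24 h (SE 0.14, adjusted p = 0.00544). PolyA Spry4 RNA was 36.3, 36.2 and 36.3 TPM in DMSO, 57.6, 54.5 and 53.7 after 2 h, 39.8, 46.4 and 44.7 after 6 h, 9.55, 7.73 and 7.92 after 24 h, and 1.94, 1.88 and 2.15 after 96 h. None of these groups overlapped DMSO. The changes were a rise of 0.60 at 2 h (SE 0.08, adjusted p = 0.000193) and 0.26 at 6 h (adjusted p = 0.0174, lost without 6 h library 2 or 3 and with centring), then falls by 2.05 at 24 h (SE 0.08, adjusted p = 8.52e-11) and by 3.89 at 96 h (adjusted p = 8.2e-15).

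Dusp6, whose product removes phosphate from ERK (chr10:99263231-99267489, plus strand), followed with a smaller amplitude. Nascent Dusp6 was 12.6, 10.5 and 12.7 FPKM in DMSO, 27.5, 22.3 and 30.0 after 2 h, 14.04, 19.4 and 18.8 after 6 h and 9.82, 7.93 and 14.1 after 24 h. The 2 h and 6 h libraries lay above DMSO and the 24 h libraries overlapped it. The 2 h rise was 1.11 (SE 0.21, adjusted p = 0.0266, 2.16-fold), and 0.51 at 6 h (adjusted p = 0.161) and -0.20 at 24 h (adjusted p = 0.501) were not called. PolyA Dusp6 RNA was 74.1, 73.5 and 70.6 TPM in DMSO, 112.5, 101.4 and 105.3 after 2 h, 87.9, 97.4 and 92.5 after 6 h, 38.7, 36.2 and 39.2 after 24 h, and 30.6, 32.4 and 34.1 after 96 h. No group overlapped DMSO. It rose by 0.54 (SE 0.05, adjusted p = 2.58e-05) and 0.34 (adjusted p = 0.000335) at 2 h and 6 h and fell by 0.93 (adjusted p = 3.09e-09) and 1.16 (adjusted p = 4.29e-11) at 24 h and 96 h.

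Spry2, another Sprouty inhibitor (chr14:105891947-105896819, minus strand), rose in nascent RNA at 2 h with no change called in polyA RNA at that time. Its nascent values were 11.3, 8.49 and 8.69 FPKM in DMSO, 16.0, 15.0 and 17.4 after 2 h, 10.8, 12.1 and 13.001 after 6 h and 5.61, 4.49 and 6.55 after 24 h. Libraries of 2 h lay above and those of 24 h below DMSO, and 6 h overlapped it. The changes were 0.74 at 2 h (SE 0.15, adjusted p = 0.0335), 0.33 at 6 h (not called, adjusted p = 0.205) and -0.73 at 24 h (adjusted p = 0.0044). PolyA Spry2 RNA was 75.3, 75.4 and 74.5 TPM in DMSO, 77.9, 75.3 and 73.7 after 2 h and 68.0, 74.0 and 71.9 after 6 h, then 35.8, 31.5 and 32.5 after 24 h and 30.8, 33.5 and 36.2 after 96 h. The 2 h libraries overlapped DMSO, those of 6 h lay just below it without a call, and those of 24 h and 96 h lay far below. It fell by 1.16 at 24 h (SE 0.06, adjusted p = 9.69e-10) and again by 1.16 at 96 h (adjusted p = 1.25e-10).

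The 2 h nascent calls of Spry2 and Dusp6 rested on all libraries being present. Spry2 lost its call when any 2 h library or DMSO library 2 or 3 was left out, with adjusted p between 0.0543 and 0.118, and Dusp6 when 2 h library 1 or 2 or DMSO library 1 or 2 was left out, with adjusted p between 0.0611 and 0.101. Spry4 kept its call in each case.

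The promoters of Dusp6 and Spry2 are printed because they alone among the 10 genes kept a peak of RNAPII, MED23 and H3K27Ac in every dTAG-13 library. The share of all genes that kept all of these was not counted. Taken singly, RNAPII, MED23 and H3K27Ac peaks stood in every dTAG-13 library at 12.5%, 10.1% and 18.5% of genes. With MED23 peaks of at least 5 in −log10 q, Dusp6 alone was left. Capitals mark an ETS-type match (CGGAAG, in 13.6% of the 32851 promoters, here CTTCCG on the reverse strand), starting 62 bases before the Dusp6 start, and the CCAAT box; Spry2 is written on its own minus strand, held none of the ETS, CCAAT or GC box letters in this window, and had 1 reverse ACAAAG match 137 bases before its start, left in lower case.
Dusp6 promoter, chr10:99262981-99263230, plus strand: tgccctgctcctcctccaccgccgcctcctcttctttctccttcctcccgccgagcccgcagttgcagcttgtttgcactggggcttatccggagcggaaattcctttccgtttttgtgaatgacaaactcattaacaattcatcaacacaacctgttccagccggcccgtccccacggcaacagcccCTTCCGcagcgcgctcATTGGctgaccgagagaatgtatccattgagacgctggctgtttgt
Spry2 promoter, chr14:105896820-105897069, minus strand: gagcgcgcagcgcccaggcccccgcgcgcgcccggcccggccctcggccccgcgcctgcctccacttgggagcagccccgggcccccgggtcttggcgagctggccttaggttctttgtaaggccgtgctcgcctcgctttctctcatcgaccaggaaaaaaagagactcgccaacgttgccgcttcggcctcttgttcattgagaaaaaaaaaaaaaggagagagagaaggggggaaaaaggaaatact

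Spry1 and Spred1 had courses of their own. Spry1 (chr3:37639947-37644598, plus strand) was higher at 24 h, with nascent values of 3.10, 2.99 and 2.26 FPKM in DMSO and 4.102, 3.82 and 5.04 after 24 h, a rise of 0.56 (SE 0.16, adjusted p = 0.0186) that was lost with centring (0.31, adjusted p = 0.176) and without 24 h library 3 or DMSO library 3. PolyA Spry1 RNA was 16.1, 14.7 and 14.5 TPM in DMSO, 12.0, 12.0 and 11.0 after 2 h, 13.4, 14.4 and 13.5 after 6 h, 26.9, 22.9 and 22.5 after 24 h and 12.7, 11.7 and 12.1 after 96 h. The 24 h libraries were the highest and all libraries of 2 h, 6 h and 96 h lay below DMSO, with calls of -0.36 at 2 h (adjusted p = 0.00417), 0.65 at 24 h (adjusted p = 1.6e-06) and -0.30 at 96 h (adjusted p = 0.00118). Spred1, which recruits neurofibromin to RAS (chr2:117121374-117182279, plus strand), rose in nascent RNA at 6 h, from 2.54, 2.28 and 2.87 FPKM in DMSO to 5.04, 4.28 and 5.06, by 0.79 (SE 0.14, adjusted p = 0.0134), and lost that call without 6 h library 1 or DMSO library 1 or 2. Its polyA RNA was 71.9, 71.0 and 67.4 TPM in DMSO, 59.9, 57.2 and 59.9 after 2 h, 56.5, 59.7 and 59.2 after 6 h, 42.5, 42.4 and 43.7 after 24 h and 33.0, 33.7 and 38.1 after 96 h. Every treated library lay below DMSO, and the falls ran from 0.25 at 2 h (SE 0.05, adjusted p = 0.0045) to 1.00 at 96 h (adjusted p = 1.09e-10).

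**Figure D3:**
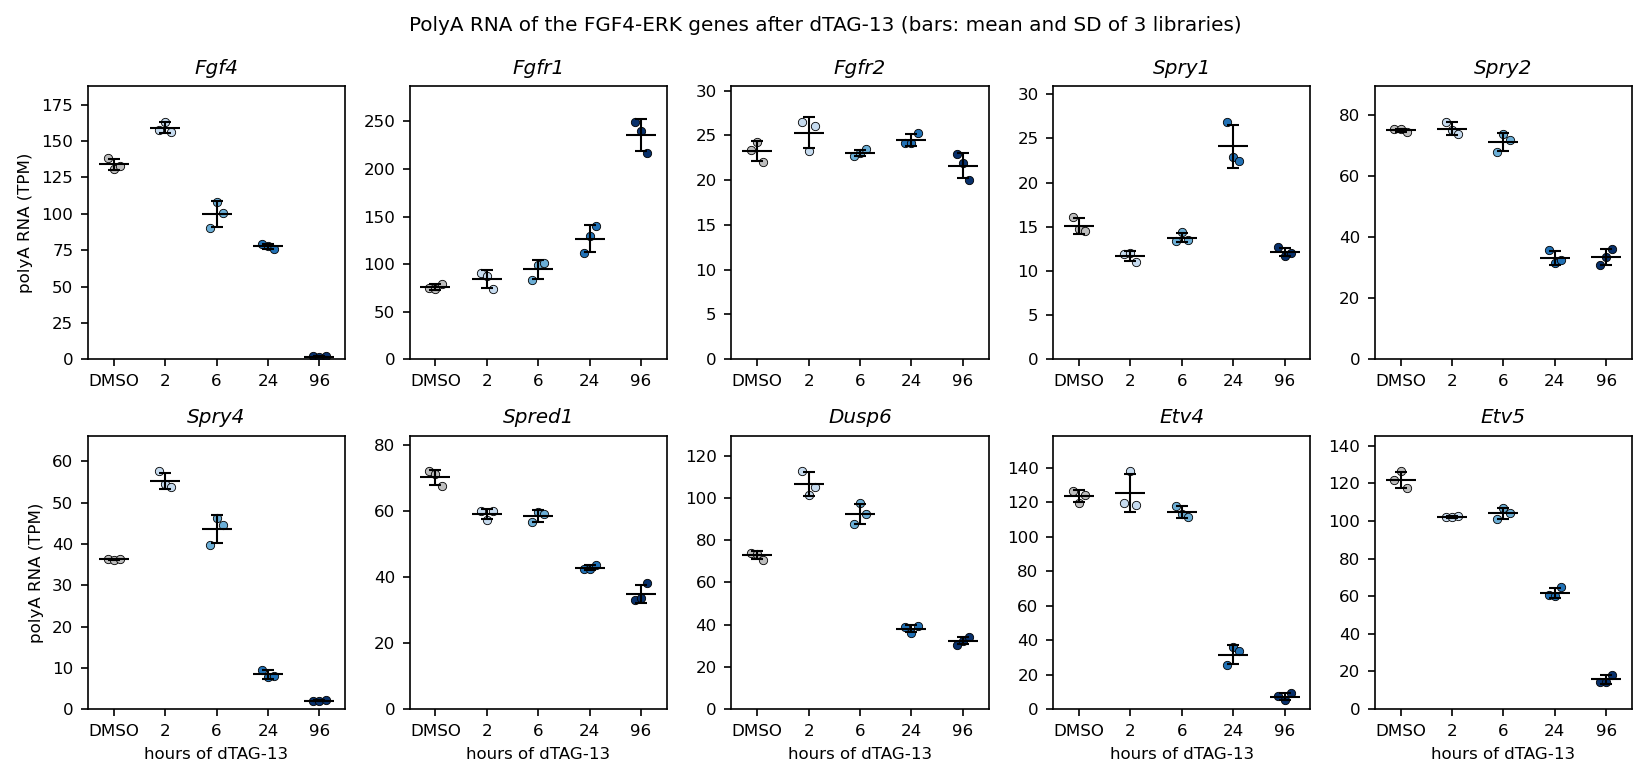
PolyA RNA (TPM, vertical axes from 0) of the 10 genes by hours of dTAG-13; points are libraries, bars the mean and SD of 3. At 96 h Fgf4 is at 1.77–1.91 TPM and Fgfr1 at 216.8–249.8 TPM, while Fgfr2 stays between 20.1 and 26.5 TPM throughout.

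The ETS factor genes, which FGF signals are known to induce, both fell in polyA RNA at 24 h and 96 h, and Etv5 was called lower there at 2 h and 6 h too. Etv4 (chr11:101769742-101785371, minus strand) had nascent values of 1.05, 0.950 and 1.06 FPKM in DMSO, 0.934, 0.978 and 0.731 after 2 h, 1.63, 0.981 and 1.14 after 6 h and 0.298, 0.287 and 0.217 after 24 h. The 2 h and 6 h libraries overlapped DMSO and those of 24 h lay below it, with a fall by 0.99 at 24 h (SE 0.13, adjusted p = 0.000328). PolyA Etv4 RNA was 126.6, 119.8 and 124.2 TPM in DMSO, 119.5, 138.0 and 118.5 after 2 h, 118.2, 113.4 and 111.3 after 6 h, 25.4, 35.9 and 33.5 after 24 h and 7.47, 5.04 and 9.13 after 96 h. The 2 h libraries overlapped DMSO and all later ones lay below it. It fell by 1.96 at 24 h (SE 0.16, adjusted p = 8.94e-08) and by 4.04 at 96 h (adjusted p = 8.28e-12), with no call at 2 h or 6 h.

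Etv5 (chr16:22381309-22439719, minus strand) had nascent values of 2.21, 2.07 and 2.13 FPKM in DMSO, 2.94, 2.74 and 2.52 after 2 h, 3.33, 2.88 and 3.16 after 6 h and 1.92, 1.87 and 1.79 after 24 h. The 2 h and 6 h libraries were above and the 24 h libraries below DMSO, with 0.29 at 2 h (adjusted p = 0.053, not called), a rise of 0.46 at 6 h (SE 0.07, adjusted p = 0.00899) and -0.16 at 24 h (adjusted p = 0.101, not called). PolyA Etv5 RNA was 121.7, 126.3 and 117.4 TPM in DMSO, 102.3, 101.9 and 102.9 after 2 h, 100.9, 107.0 and 104.3 after 6 h, 60.4, 59.9 and 64.7 after 24 h and 14.6, 14.4 and 18.2 after 96 h. All treated libraries lay below DMSO. The falls were by 0.98 at 24 h (SE 0.07, adjusted p = 2.44e-08) and by 2.92 at 96 h (adjusted p = 4.51e-14), and those at 2 h (-0.25, adjusted p = 0.0262) and 6 h (-0.23, adjusted p = 0.022) were lost without any 2 h library or DMSO library 1 or 2, and without 6 h library 1 or 3 or DMSO library 1 or 2.

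Counted over the 10 genes, nascent RNA gave 3 calls at 2 h, all higher (3.55% of 13357 genes were called in either direction and 1.58% were called higher). At 6 h there were 5 calls, 4 higher and 1 lower (9.09% of genes called, 7.82% higher and 1.27% lower), and at 24 h 6 calls, 2 higher and 4 lower (37.9% of genes called, 32.3% higher and 5.59% lower). The members' median change was 0.26, 0.29 and -0.18 at the 3 times, against -0.05, 0.06 and 0.21 over all genes. The share of calls that were higher turned on the scaling: over all genes it was 211 of 474 at 2 h, 1044 of 1214 at 6 h and 4316 of 5063 at 24 h, and with centred libraries 459 of 679, 730 of 1071 and 1858 of 4107. With centring the members had 4, 4 and 7 calls, of which 4, 3 and 1 were higher.

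PolyA RNA gave 6 calls at 2 h (3 higher, 3 lower; of 17922 genes 15.3% were called, 8.25% higher and 7.02% lower), 6 at 6 h (3 higher, 3 lower; 33.9% of genes called, 18.4% higher and 15.5% lower), 9 at 24 h (2 higher, 7 lower; 67.9% called, 42.9% higher and 25% lower) and 9 at 96 h (1 higher, 8 lower; 80.3% called, 42.9% higher and 37.4% lower). Changes over 2-fold were a smaller group: 3 members were lower at 24 h (2.01% of genes) and 6 at 96 h (12.4% of genes). The median change of the members was 0.07, -0.09, -0.86 and -1.16 at the 4 times, against -0.02, 0.03, 0.13 and 0.05 over all genes. Higher calls over all genes numbered 3296 of 6079 at 6 h, 7681 of 12167 at 24 h and 7681 of 14385 at 96 h, and with centring 2023 of 6733, 4643 of 12543 and 6037 of 14751. With centring, 1 of 6 member calls at 6 h, 2 of 10 at 24 h and 1 of 10 at 96 h were higher.

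**Figure D4:**
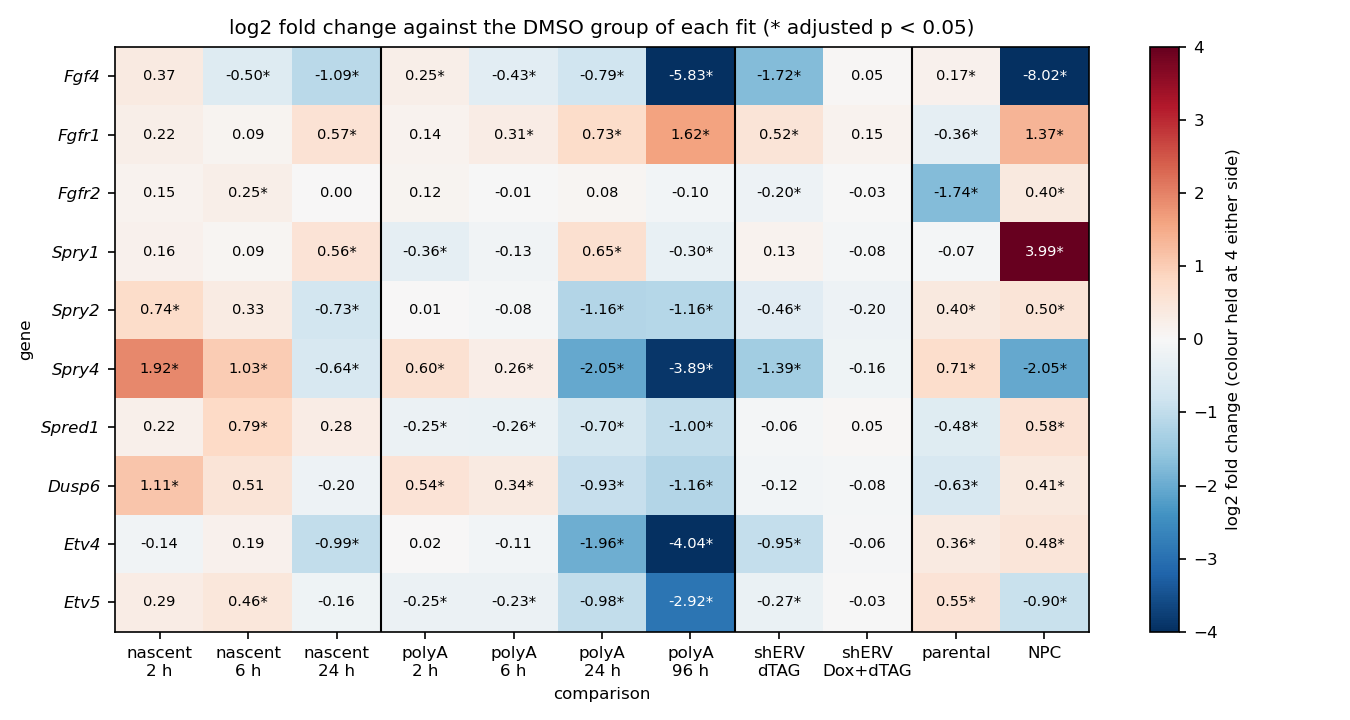
Log2 fold change of each of the 10 genes (rows) in 11 comparisons (columns), each against the DMSO group of its own fit, with stars at adjusted p under 0.05 and colour held at 4 either side. Red cells for Spry4 and Dusp6 at 2 h give way to blue at 24 h, and the shERV column with doxycycline has no star.

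Other genes of the pathway gave a context. Of 18 other ERK feedback and target genes tested in nascent RNA, 6 rose at 2 h, among them the immediate-early genes Egr1 (4.96–16.5 FPKM in DMSO, 33.1–42.8 at 2 h, log2 change 1.94, adjusted p = 0.0481) and Junb (3.85–5.44 and 10.3–12.2 FPKM, 1.19, adjusted p = 0.0148). Of all genes 1.58% rose at 2 h, and the median log2 change was 0.53 in the list and -0.05 over all genes. At 6 h 2 of the 18 rose (7.82% of all genes; medians 0.25 and 0.06). At 24 h 7 rose and 5 fell (32.3% and 5.59% of all genes; medians 0.09 and 0.21), led by Fos (2.42, adjusted p = 9.4e-05), Egr1 (1.81) and the FGF antagonist gene Il17rd (1.33). In polyA RNA 3 of 19 rose and 12 fell at 24 h (42.9% and 25% of all genes; medians -0.60 and 0.13), with Myc at 121–130 TPM in DMSO and 18.8–22.3 at 24 h (-2.60, adjusted p = 1.77e-12), Fosl1 at -2.07 and Fos at 2.06. At 96 h 9 rose and 8 fell (42.9% and 37.4% of all genes; medians 0.02 and 0.05), led by Fos (2.71), the ETS factor gene Etv1 (-2.22) and Myc (-2.17).

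The RAS-ERK cascade list held RAS, RAF, MEK and ERK genes with their adaptors. It also held the RAS inhibitor genes Nf1, Rasa1 and Rasa2 and the ERK-activated kinase genes Rps6ka1 and Rps6ka3. At 24 h 13 of its 20 genes tested rose in nascent RNA (32.3% of all genes, median 0.33, 0.21 over all genes). Nf1, Rasa1, Rasa2 and Rps6ka1 were among those 13. Sos2 was too, at 0.237–0.266 FPKM in DMSO and 0.675–0.748 at 24 h. It passed the filter of 0.5 FPKM in 3 libraries only through its 24 h libraries, so its inclusion favoured a rise. Nf1 (0.360–0.448 FPKM in DMSO) passed only through treated libraries. In polyA RNA 12 of 22 rose and 6 fell (42.9% and 25% of all genes, median 0.16, 0.13 over all genes). On the log2(value + 0.5) scale none of these changes was over 2-fold. Without the added 0.5, mean nascent Sos2 at 24 h was 2.80-fold that of DMSO. At 96 h 12 rose and 5 fell (42.9% and 37.4% of all genes, median 0.10, 0.05 over all genes), with the ERK-activated kinase gene Rps6ka3 at 1.82, the RAS exchange factor gene Sos2 at 1.24 and the scaffold gene Ksr1 at 1.13. Of 10 other genes of the FGF family tested in polyA RNA, 3 rose and 4 fell at 24 h (42.9% and 25% of all genes, median -0.23): Fgf8 went from 2.46–3.13 to 13.1–14.5 TPM (2.15, adjusted p = 2.82e-08), while Fgf15 went from 10.7–11.8 to 2.82–3.08 TPM (-1.77) and Fgf18 from 3.44–3.73 to 0.802–1.00 TPM (-1.58). At 96 h 4 rose and 6 fell (42.9% and 37.4% of all genes, median -0.37), among them Fgf15 (-4.02), Fgf17 (-2.45) and Fgf22 (1.96). Of 8 other receptor and co-receptor genes, 5 rose and 1 fell at 24 h (42.9% and 25% of all genes, median 0.38), with the adaptor gene Frs3 at 1.54. At 96 h 6 rose and 1 fell (42.9% and 37.4% of all genes, median 1.16), and the glypican gene Gpc4 went from 54.6–55.9 to 412–436 TPM (2.94), Fgfrl1 changed by 2.18 and the syndecan gene Sdc1 by 1.60.

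In the shERV line 24 h of dTAG-13 again lowered Fgf4, Spry4 and Etv4, and the group with doxycycline stood near DMSO. Fgf4 was at 61.5, 63.5 and 63.6 TPM in DMSO, 18.2, 18.6 and 19.4 after dTAG-13 and 63.4, 66.9 and 64.4 after dTAG-13 with doxycycline. Only the dTAG-13 group stood apart. It was lower by 1.72 than DMSO on the log2 scale (SE 0.04, adjusted p = 3.68e-10, 3.29-fold), and the group with doxycycline was higher than dTAG-13 alone by 1.77 (SE 0.04, adjusted p = 2.3e-10). Spry4 had 24.1, 26.5 and 26.97 TPM in DMSO, 10.1, 9.15 and 9.40 with dTAG-13 and 23.6, 23.5 and 22.2 with doxycycline added. Etv4 had 40.1, 48.1 and 45.0, then 23.4, 22.8 and 22.1, then 40.9, 45.0 and 41.8 TPM in the same order. Against DMSO Spry4 fell by 1.39 (adjusted p = 1.62e-08) and Etv4 by 0.95 (adjusted p = 4.33e-07), and both were higher with doxycycline than without, by 1.23 (adjusted p = 3.94e-08) and 0.89 (adjusted p = 8.36e-07).

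Fgfr1 moved the other way, with 68.4, 77.1 and 75.4 TPM in DMSO, 106.6, 104.2 and 105.3 with dTAG-13 and 78.0, 82.5 and 84.6 with doxycycline added, a rise of 0.52 (adjusted p = 7.19e-06) and then a difference of -0.37 (adjusted p = 0.00013). Smaller falls after dTAG-13 were those of Spry2 (70.0–79.6 to 51.8–56.9 TPM, by 0.46, adjusted p = 3.42e-05), Etv5 (55.4–62.5 to 47.1–50.9 TPM, by 0.27, adjusted p = 0.000976) and Fgfr2 (17.9–19.4 to 15.2–17.6 TPM, by 0.20, adjusted p = 0.0331). The Fgfr2 call was lost without dTAG-13 library 1 or 2 or DMSO library 2 or 3. Dusp6 (68.5–75.5 in DMSO, 64.2–70.1 TPM with dTAG-13), Spred1 (42.9–48.4 and 42.0–45.5 TPM) and Spry1 (8.12–8.45 and 8.58–9.49 TPM) were not called, with differences of -0.12, -0.06 and 0.13. With centring Dusp6 (-0.29, adjusted p = 9.28e-05) and Spred1 (-0.23, adjusted p = 0.000286) were called lower.

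After dTAG-13 in this line 7 members were called, 1 higher and 6 lower (54% of 16166 genes called, 41.2% higher and 12.8% lower), with a median of -0.23 against 0.14 over all genes. Higher calls were 6667 of 8729 over all genes, and 4189 of 8978 with centring, where the members had 1 higher and 8 lower. Dox + dTAG-13 against dTAG-13 gave 7 calls, 5 higher (Fgf4, Spry4, Etv4, Spry2 and Etv5) and 2 lower, Fgfr1 and Spry1 (46.8% of genes called, 17.5% higher and 29.3% lower), and over all genes 2825 of 7562 calls were higher, or 4570 of 8693 with centring, where 8 members were higher and 1 lower. The Spry1 difference was -0.20 (adjusted p = 0.0262). It was not called with centring (adjusted p = 0.0583), without Dox + dTAG-13 library 1 (adjusted p = 0.115), or without dTAG-13 library 1 or 3 (adjusted p = 0.0968 and 0.0776). These comparisons share the dTAG-13 libraries. Dox + dTAG-13 against DMSO gave 0 member calls in limma (0.0619% of genes called). At an unadjusted p under 0.05, 3 members differed: Fgfr1 by 0.15, Spry2 by -0.20 and Spry4 by -0.16. A missed threshold does not show equality, and Spry4 and Spry2 lay below every DMSO library and Fgfr1 above. The Fgf4 difference was 0.05 (SE 0.04). Summed embryonic stem cell markers took the same order, 1449–1609 TPM in DMSO, 841–853 with dTAG-13 and 1519–1553 with doxycycline, while fibroblast markers were at 694–784 TPM in all 3 groups (Acta2 alone at 585–674 TPM). Primitive endoderm markers, led by Sparc, took the opposite order, at 820–901 TPM in DMSO, 1098–1155 with dTAG-13 and 879–914 with doxycycline. Sparc alone was at 538–588, 754–774 and 565–603 TPM in these groups. The part of these markers in the member values was not tested. Of 19 other ERK feedback and target genes 8 rose and 4 fell after dTAG-13 (41.2% and 12.8% of all genes, median 0.11), led by Fos (4.89–5.55 to 11.6–12.8 TPM, 1.15). Of 22 RAS-ERK cascade genes 13 rose (41.2% of all genes, median 0.19). Fgf15 fell by 1.06.

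**Figure D5:**
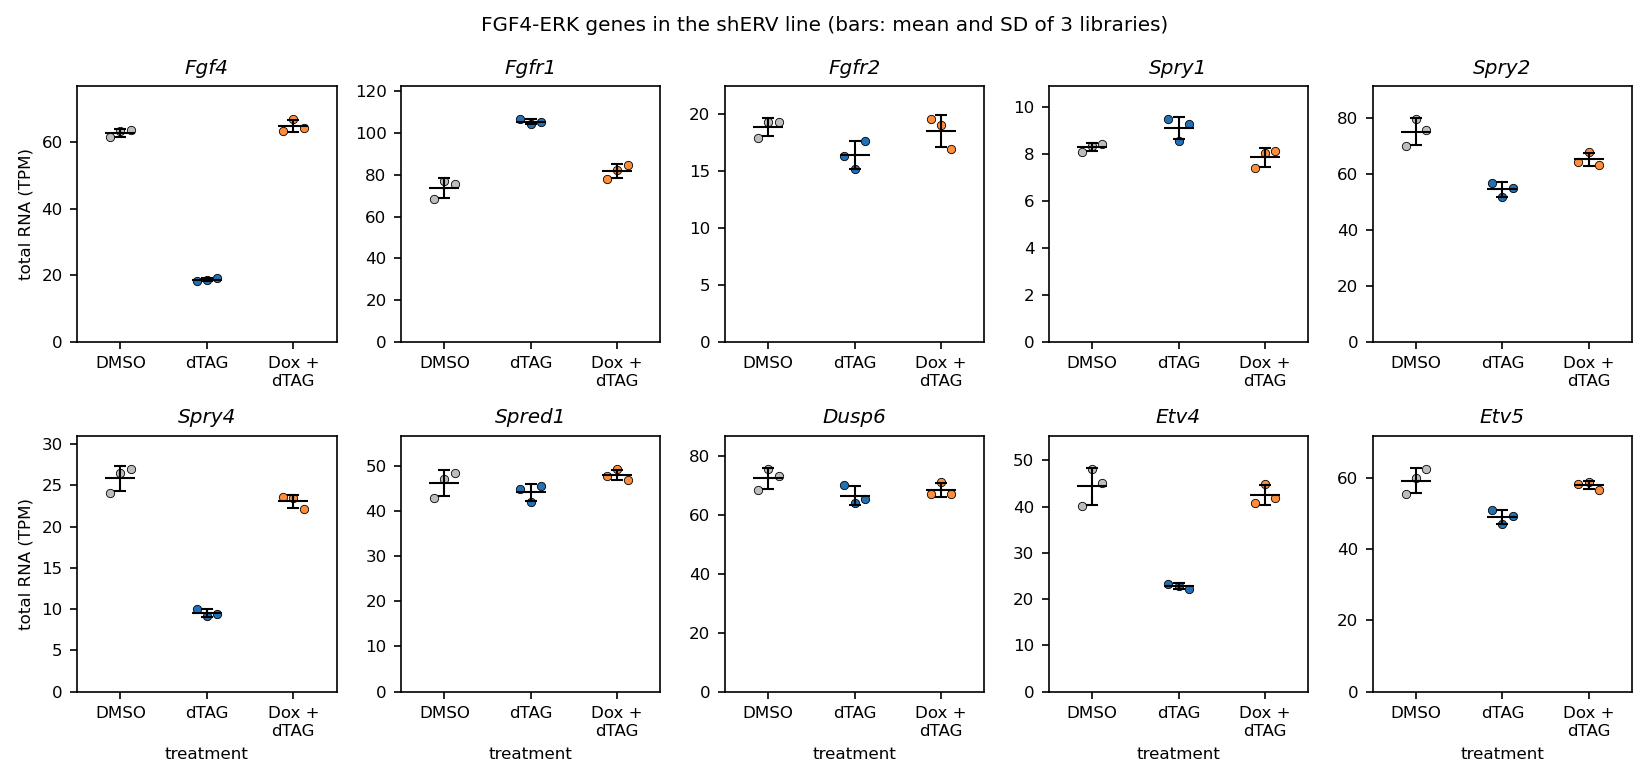
Total RNA (TPM, vertical axes from 0) of the 10 genes in the shERV line by treatment for 24 h; points are libraries, bars the mean and SD of 3. Fgf4, Spry4 and Etv4 are low in the dTAG-13 group alone, and Fgfr1 is high there.

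The 24 h effect of dTAG-13 in the shERV line differed from that in the time course for 9 of the 10 genes by an interaction test, 6 with a higher value in the shERV line and 3 with a lower one (52.9% of 18626 genes called, 27% higher and 25.8% lower). The fall of Fgf4 was larger in the shERV line (-1.72 against -0.79, difference -0.93, adjusted p = 1.54e-09). The falls of Spry4, Spry2, Etv4 and Etv5 were smaller there, by 0.66, 0.71, 1.02 and 0.71, and so were those of Dusp6 (difference 0.81, adjusted p = 3.08e-08) and Spred1 (0.64), neither of which was called in the shERV line. Spry1 differed by -0.53, Fgfr2 by -0.28, and Fgfr1 by -0.21, the last without a call (adjusted p = 0.15). Line and RNA kit, total against polyA RNA, differ together between these experiments and cannot be told apart.

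Across cell populations in polyA RNA, the tagged cells in DMSO differed from the untreated parental cells in 9 members, 5 higher and 4 lower in the parental cells (66% of 17458 genes called, 25% higher and 41% lower). The largest difference was in Fgfr2, at 6.01, 6.39 and 7.49 TPM in the parental cells against 22.0–24.3 TPM in the tagged line, lower by 1.74 on the log2 scale (SE 0.08, adjusted p = 7.83e-08). Spry4 was at 60.6, 59.2 and 59.5 TPM (higher by 0.71, adjusted p = 6e-06) and Etv5 at 177.2, 179.6 and 178.3 TPM (higher by 0.55), while Dusp6 was at 45.8, 46.8 and 48.3 TPM (lower by 0.63). Fgf4 was at 151, 145.2 and 156.7 TPM, a difference of 0.17 (adjusted p = 0.0147) that was lost with a pseudocount of 0.1 and without parental library 3 or tagged library 2. Over all genes 4364 of 11525 calls were higher, and 7292 of 11990 with centring; the members' split of 5 and 4 stayed at those counts. Primitive endoderm markers summed to 205–208 TPM in the parental cells, below the 370–382 TPM of the tagged line. Sparc alone was at 131–137 and 260–262 TPM in the same order. Fibroblast markers summed to 148–151 and embryonic stem cell markers to 5036–5054 TPM in the parental cells. The part of all these markers in the member differences was not tested. Of 19 other ERK feedback and target genes 5 were higher and 13 lower (25% and 41% of all genes, median -0.41, -0.09 over all genes), led by Fos (3.60), the phosphatase gene Dusp14 (-2.22) and Myc (-2.02). Of the other genes of the FGF family Fgf13 (-1.46), Fgf8 (-1.30) and Fgf10 (1.12) differed most. Trim28 RNA itself was at 1418, 1389 and 1387 TPM in the parental cells, against 622–626 TPM in the tagged line. Degron tag and DMSO differ together between these populations and cannot be told apart.

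In NPCs all 10 members differed from the tagged line in DMSO (89% of 17458 genes called, 49.5% higher and 39.5% lower), 7 higher and 3 lower. Fgf4 was listed at 0.0545, 0 and 0 TPM, and its fitted change depends on the pseudocount. Spry1 was at 256.5, 246.9 and 237.0 TPM, against 14.5–16.1 TPM in the tagged line, higher by 3.99 (SE 0.05, adjusted p = 3.45e-12, 15.9-fold). Spry4 stood at 9.44, 7.82 and 8.01 TPM, lower by 2.05, and Etv5 at 71.3, 62.0 and 62.8 TPM, lower by 0.90. Fgfr1 (192.8–198.6 TPM, higher by 1.37), Spred1 (103.4–107.7 TPM, by 0.58), Spry2 (101.9–117.2 TPM, by 0.50), Etv4 (154.4–197.7 TPM, by 0.48), Dusp6 (91.6–106.1 TPM, by 0.41) and Fgfr2 (29.3–31.7 TPM, by 0.40) were higher, but of these only Fgfr1 and Spred1 kept the call with centring. Over all genes 8639 of 15537 calls were higher, and 6408 of 15485 with centring. Neural markers summed to 3598–3675 TPM, and 4 embryonic stem cell markers, Dppa4, Pou5f1, Utf1 and Zfp42, were listed at 0. Among the other ligands Fgf15 was at 400–408 TPM (higher by 5.10), and Epha2 (-5.42), Junb (-3.78) and Lif (-3.23) led the lower ERK targets.

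At the promoters, taken as 1 kb either side of the RefSeq start, RNAPII peaks were called in every DMSO library for 9 of the 10 genes (25% of 37695 genes) and in every dTAG-13 library for 3 (12.5% of genes): Spry2, Dusp6 and Etv5. The other 7 had no RNAPII peak in either treated library. Of all genes with a peak in every DMSO library, 49.7% kept one. Dusp6 peaks had a fold enrichment of 22.8 and 21.7 in DMSO against 5.29 and 8.45 in treated cells, Etv5 19.9 and 18.7 against 9.10 and 7.41, and Spry2 15.2 and 14.01 against 12.3 and 11.2. Set against the median promoter peak of each library, which itself fell, the log2 ratios were -1.11, -0.64 and 0.27, so that Spry2 was lower as deposited and higher relative to other promoters. With 2 libraries a group the two-sided exact permutation test gives 0.333 at the smallest, as it did for all 3.

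MED23 peaks were called in every DMSO library at all 10 members (38.4% of genes) and in every treated library at 4, Fgf4, Spry2, Spred1 and Dusp6 (10.1% of genes, and 26.1% of those with DMSO peaks). Spry2 went from 25.8 and 29.4 to 4.73 and 4.08, Dusp6 from 29.2 and 29.1 to 10.8 and 11.9, and Spred1 from 17.3 and 21.6 to 3.76 and 3.85. Relative to the library median the log2 ratios were -1.88, -0.60 and -1.59, and -0.30 for Fgf4, each with an exact permutation p of 0.333, the smallest possible. Only Dusp6 kept a peak in every library when peaks had to reach 5 in -log10 q.

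H3K27Ac, a mark of active promoters and enhancers, had peaks in every DMSO library at 9 members (29.8% of genes) and in every treated library at 3, Spry2, Spry4 and Dusp6 (18.5% of genes, 61.8% of those with DMSO peaks). The treated libraries were uneven, with 30259, 117348 and 45662 peaks in all, and 9 members had a peak in the second of them. Dusp6 stood at 17.9, 18.2 and 11.4 in DMSO against 5.86, 14.2 and 3.48 in treated cells, which overlap, with a relative log2 ratio of -0.84 (exact permutation p = 0.2, where 0.1 is the smallest possible). The ratios of Spry4 (-0.28, exact permutation p = 0.5) and Spry2 (-0.08, exact permutation p = 0.9) were within the spread between libraries. H3K9me3, the mark of TRIM28-bound retroviruses, had no promoter peak at any of the 10 genes in any of the 6 libraries (3.83% of genes had one in every DMSO library and 1.01% in every treated library, 1 of which held only 11474 peaks).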

How the data were processed

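TT-SLAM-seq values were deposited by the authors as FPKM per gene, and RNA-seq values as StringTie TPM beside mean coverage per gene. Peaks were called by the authors in each library with MACS2, and its fold enrichment (a ratio) and −log10 q were used as deposited. Per the labels, the processing notes list STAR 2.7.5a, StringTie 2.0.6, cutadapt 2.4, BWA and mm10. FPKM used the gene span as length: with it, 100% of values up to 20 reads came out within 0.1 of whole reads, against 40.3–44.3% with exon lengths. Per the study's methods, only reads with T-to-C conversions were counted, by strand, and a read over several genes counted for each of them.

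Here, log2(value + 0.5) was fitted with limma 3.58.1 (R 4.3.3; trend in the prior variance) over genes with at least 0.5 FPKM or 1 TPM in at least 3 libraries, one fit for each of the nascent (12 libraries), time-course (15), shERV (9) and cell population (9) data and 24 libraries for the interaction. All 10 members passed these filters in every fit. P-values were adjusted by Benjamini-Hochberg over all genes tested, and a call is an adjusted p under 0.05. The FPKM and TPM are not counts, so fold changes of low genes are understated by the pseudocount. All members are named, and from each other pathway list up to 3 genes with the largest change over 2-fold without overlap. Members, lists and motifs were chosen with earlier results of these data known. Promoter peaks were compared by a two-sided exact permutation test (scipy 1.17.1), and sequences were taken with pysam 0.24.0. The fit was tested on simulated data. Alternatives were pseudocounts of 0.1 and 1, no filter, centring on library medians, a replicate block, limma-voom on recovered reads, other peak windows and thresholds, and leaving out each library. Same-numbered libraries did not deviate together, so no pairing was used.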

Additional observations from a re-analysis of the deposited data

Results flagged for a closer look

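These 9 results were listed because the 24 h effect of dTAG-13 differed between the shERV line (total RNA) and the time course (polyA RNA) in an interaction test (limma, adjusted over 18626 genes). Given as the shERV effect minus the time-course effect on the log2(TPM + 0.5) scale, the differences were 1.02 for Etv4 (adjusted p = 0.000184), 0.71 for Etv5 (adjusted p = 1.93e-06), 0.81 for Dusp6 (adjusted p = 3.08e-08), 0.64 for Spred1 (adjusted p = 3.93e-07), 0.71 for Spry2 (adjusted p = 6.37e-07) and 0.66 for Spry4 (adjusted p = 1.43e-05), where the fall was smaller in the shERV line, or no fall was called there. They were -0.93 for Fgf4 (adjusted p = 1.54e-09), whose fall was larger in the shERV line, and -0.53 for Spry1 (adjusted p = 8.5e-05). The rise of Spry1 was called in the time course only. In the shERV line its dTAG-13 libraries (8.58–9.49 TPM) lay above DMSO (8.12–8.45 TPM) without a call. For Fgfr2 the difference was -0.28 (adjusted p = 0.0159), lost with centring (-0.15, adjusted p = 0.129) and without shERV dTAG-13 library 2. For Fgfr1 the difference was -0.21 (adjusted p = 0.15). Cell line and RNA kit differ together here and cannot be told apart.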

How the results depend on the processing

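Of 130 member values tested, 86 were called. Of these 68 kept the call under every alternative run, 18 lost it under at least 1 (4 of them only when a library was left out), and 0 changed direction. Among uncalled values, 14 were called in the same direction under an alternative and 2 in the other: Fgfr2 at 24 h with each library centred on its median, in nascent RNA (-0.24, adjusted p = 0.022) and in polyA RNA (-0.21, adjusted p = 0.00477). Centring changed the count of members called from 0 to 1 for Dox + dTAG-13 against DMSO (Spry2, -0.29, adjusted p = 0.0361) and from 10 to 6 for NPCs. Peaks with a −log10 q of at least 5 left 1 member in place of 4 with MED23 in every library, and a window of 5 kb gave 5 in place of 3 for H3K27Ac. The causes were not tested.

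With each library left out in turn, the count of members called ran from 1 to 3 in nascent RNA at 2 h (1 without 2 h library 1 or 2, or DMSO library 2), 2 to 4 at 6 h (2 without 6 h library 1, or DMSO library 1 or 2), and 5 to 6 at 24 h. In polyA RNA it ran from 5 to 6 at 2 h, 3 to 6 at 6 h (3 without 6 h library 3), 9 to 9 at 24 h and 9 to 9 at 96 h. It ran from 6 to 8 for shERV dTAG-13 against DMSO, 6 to 8 for Dox + dTAG-13 against dTAG-13, 0 to 0 against DMSO, 8 to 9 for parental cells, 10 to 10 for NPCs and 8 to 10 for the interaction. For peaks in every library it was 3 to 3 for RNAPII, 4 to 7 for MED23 (7 without dTAG-13 library 2), 3 to 5 for H3K27Ac (5 without dTAG-13 library 3) and 0 to 0 for H3K9me3.

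The replicate block changed 1 call, Fgfr2 in the shERV line after dTAG-13 (adjusted p = 0.0522). Over the fits, the correlation of same-numbered libraries' deviations lay between -0.205 and 0.177. On reads recovered from the FPKM, limma-voom (chosen after seeing the data) also called Dusp6 at 6 h (0.54, adjusted p = 0.0344) and Spred1 at 24 h (0.40, adjusted p = 0.0268). The planned quasi-likelihood count test was not run, and limma-voom on the recovered reads took its place. Depth limits nascent Etv4 most, with 22 reads in its lowest library.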

Other observations

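For 3 members the genes with the most similar course over the 15 time-course libraries were sought among 17921 genes, by the root-mean-square difference of log2(TPM + 0.5) profiles centred on their means, which is a description of libraries that share one series. For Fgf4, whose own profile had an SD of 2.27, these were Gm6644 (0.21), Platr10 (0.27) and Snora73a (0.34). Platr10 went from a mean of 148 TPM in DMSO to 2.86 TPM at 96 h, and Gm6644 from 22.4 TPM to being listed at 0. For Fgfr2, whose profile had an SD of only 0.096, the nearest were B4galnt3 (0.065), Ptpn4 (0.070) and Anapc7 (0.071), all nearly level. For Dusp6 they were Gpatch4 (0.18), Map1a (0.19) and Magel2 (0.19), with Gpatch4 at a mean of 77.1 TPM in DMSO and 33.7 TPM at 96 h.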
